A study of Homo sapiens with 2 samples.

Results

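The genes described here are 34 DNA replication and S phase genes, chosen by name as licensing, helicase, fork and nucleotide supply genes, among 19362 genes in the table. All 34 had a symbol match, and all 34 passed the filter on low values, a mean over both libraries of at least 1 CPM (counts per 1000000 reads). RNA was sequenced from FTC-133 cells, an established line from a human follicular thyroid carcinoma. There was 1 library from cells transfected with a control siRNA and 1 library from cells transfected with CHI3L1 siRNA. CHI3L1 encodes a secreted chitin-binding glycoprotein without chitinase activity. Neither the time after transfection nor the siRNA sequences are given in the sources used here. With 1 library a group there is no replicate spread and no test, so what follows compares 2 libraries, and says nothing of how cultures vary.

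Before S phase, the origin recognition complex (ORC), CDC6 and CDT1 load the ring of MCM2 to MCM7 onto DNA, a step called licensing. CDC45 and the GINS complex then join the ring, and MCM10 helps make this helicase active. DNA polymerase alpha and primase start each strand, the RFC complex loads the sliding clamp PCNA, polymerases epsilon and delta extend, and FEN1 and LIG1 finish the fragments of the lagging strand. Transcription of many of these genes is switched on before S phase by E2F transcription factors, and cyclin E with its kinase CDK2 helps start replication. In cultured tumour cells the set is used as a readout of cycling cells. In bulk RNA, fewer cells in S phase and less RNA per cell cannot be told apart.

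The letters that E2F factors bind are shown first, because they are shared by many of these genes and were not used to choose them. RefSeq promoter windows (GRCh38.p14, 250 bases before to 50 bases after a start site) were matched for 30 of the 34 genes. Searched on both strands were TTTCCCGC, TTTCGCGC, TTTGCCGC and TTTGGCGC, with overlapping matches counted as 1 site. At least 1 site was found for 18 of 30 genes (60%), against 20 of 67 further replication genes with a window (29.9%), 6.48% of 11065 tested genes and 3.99% of all 27305 genes with a window. Over all 35116 windows the share was 3.31%. The 200 bases just before the start site are printed below 5′ to 3′ on the gene's strand, with the matched letters in capitals. Shown are a helicase subunit with 2 sites, E2F1 itself, the gene with the highest fold before any correction and the sliding clamp.
MCM6: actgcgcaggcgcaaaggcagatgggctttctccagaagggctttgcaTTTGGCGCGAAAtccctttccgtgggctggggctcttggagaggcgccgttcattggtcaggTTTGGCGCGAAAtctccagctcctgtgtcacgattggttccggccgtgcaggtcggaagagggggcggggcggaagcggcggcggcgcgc
E2F1: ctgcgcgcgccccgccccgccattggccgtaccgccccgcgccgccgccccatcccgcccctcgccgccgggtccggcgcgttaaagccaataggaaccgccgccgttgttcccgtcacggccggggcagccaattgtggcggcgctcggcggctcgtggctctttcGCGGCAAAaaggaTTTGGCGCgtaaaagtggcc
POLA1: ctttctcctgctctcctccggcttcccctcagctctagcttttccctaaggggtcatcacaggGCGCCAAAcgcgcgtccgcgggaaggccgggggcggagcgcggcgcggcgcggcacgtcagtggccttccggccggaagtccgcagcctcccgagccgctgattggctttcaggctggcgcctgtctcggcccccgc
PCNA: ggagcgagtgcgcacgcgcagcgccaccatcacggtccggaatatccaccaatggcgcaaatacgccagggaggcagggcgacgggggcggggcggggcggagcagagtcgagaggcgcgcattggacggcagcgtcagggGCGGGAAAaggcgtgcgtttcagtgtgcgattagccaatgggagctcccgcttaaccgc

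The MCM6 window is chr2:135876444-135876643 on the minus strand, with the 12-letter run TTTGGCGCGAAA beginning 152 and 90 bases before the start. In 36 of the genes' 39 windows, bases just after the start were found in an annotated transcript of the same gene. The MCM6 window was not among these. The E2F1 window is chr20:33686386-33686585 on the minus strand, with sites beginning 33 and 20 bases before the start. In POLA1, chrX:24693718-24693917 on the plus strand, the site begins 137 bases before the start. In PCNA, chr20:5126623-5126822 on the minus strand, it begins 59 bases before the start. Another PCNA window, not printed, had 0 sites. Of all 23 sites in the genes' 39 windows, 16 begin within 60 bases before the start or after it. The letters did not separate genes by fold: the 18 genes with a site had a median log2 fold of 0.04 (from −1.41 to 0.51), and the 12 without had 0.05 (from −0.66 to 0.48). The letters CCAAT, bound by NF-Y, were in windows of 18 of 30 genes (60%) and of 43.2% of tested genes. A match describes letters and does not show binding.

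The control siRNA library held 15837449 reads and the CHI3L1 siRNA library 19467345, recovered from the deposited CPM values. CHI3L1 itself stood at 140 CPM with the control siRNA and 48.6 CPM with the CHI3L1 siRNA (ratio 0.347, 0.321 to 0.374). Intervals in parentheses after a ratio are 95% exact (Clopper-Pearson) intervals that cover counting error only, as no molecular identifiers are described. Of values given in pairs, the control siRNA library comes first. Of the thyroid follicular markers, the transcription factors NKX2-1 (88.6 and 112 CPM) and PAX8 (82.8 and 71.2 CPM) were well above the floor of 3 reads. The other lineage transcription factors on the list, HHEX (50 and 68 reads) and FOXE1, were far lower. Thyroglobulin (TG) had 10 and 14 reads and FOXE1 1 and 19 reads, a ratio of 15.4 (2.45 to 640). TSHR had 138 and 180 reads, SLC26A4 94 and 120, HHEX 50 and 68 and DIO1 5 and 10, all with intervals that held 1, while SLC5A5 and DUOX2 were not analysed here. Of the fibroblast markers, THY1 (558 and 745 CPM) was the highest, with a ratio whose interval lay above 1 (1.30 to 1.37), as did that of FAP (223 and 240 CPM, 1.03 to 1.12). LUM was lower at 51.8 and 40.2 CPM (ratio 0.776, 0.703 to 0.857), and PDGFRB (113 and 154 reads) and DCN (19 and 29 reads) had intervals that held 1. The endothelial markers went both ways, with PECAM1 at 116 and 74 reads (ratio 0.517, 0.381 to 0.699), KDR at 39 and 79 (ratio 1.64, 1.11 to 2.48) and VWF at 23 and 37, where the interval held 1. The leukocyte gene PTPRC had 12 and 8 reads, and its interval held 1. The part of other cell types in the results below was not tested.

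Replication and S phase genes differed little in sum and unequally one by one. Their summed level was 1587 CPM with the control siRNA and 1643 CPM with the CHI3L1 siRNA, a ratio of 1.04 (1.02 to 1.05). On the log2 scale after adding 1 CPM, 0 of 34 genes passed 1.5-fold higher with the CHI3L1 siRNA, beside 7.73% of all 14815 tested genes. Past 1.5-fold lower were 3 of 34 (POLE2, ORC6 and RFC3), beside 13.4% of all tested genes. Past 2-fold, 1 of 34 was lower, POLE2, and 0 were higher, beside 4.41% and 1.03% of all tested genes. The median log2 fold was 0.06, beside 0.01 for all tested genes. Counting error was smaller than the difference for most: the interval lay wholly above 1 for 13 genes (32% of all tested), wholly below 1 for 11 (29.7%) and held 1 for 10 (38.4%). The lowest read number of any of the 34 genes in either library was 107.

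**Figure D1:**
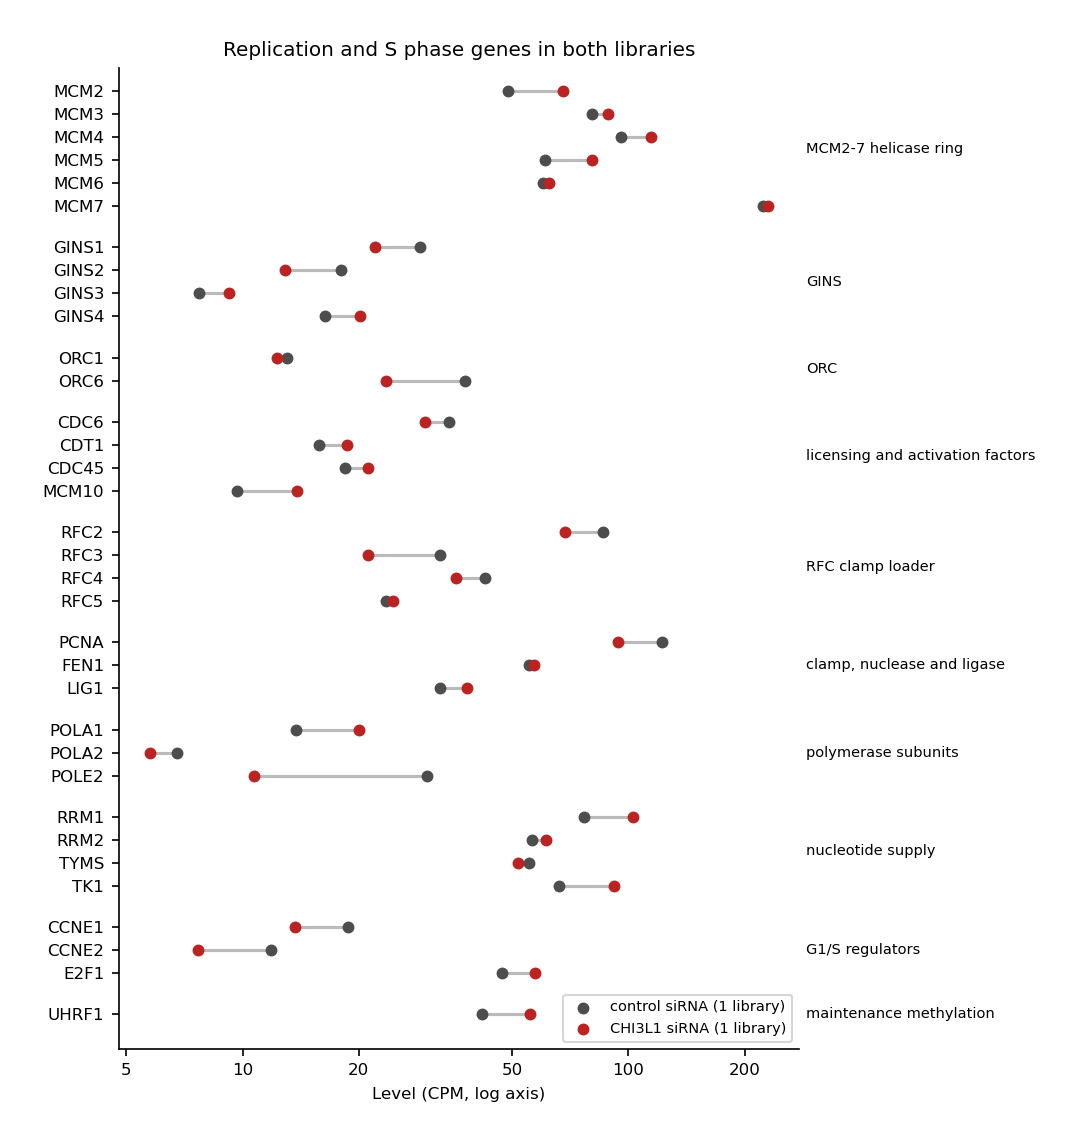
Level of each of the 34 genes in CPM on a log axis, with 1 point for the control siRNA library and 1 for the CHI3L1 siRNA library, grouped by role. The points of POLE2 lie farthest apart, at 30.1 and 10.7 CPM, and all 6 subunits of the MCM2-7 ring have the CHI3L1 siRNA point to the right in these values (4 of 6 are below 0 after the length and GC correction, and 2 of 6 with centring).

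All subunits of the helicase ring stood higher in the CHI3L1 siRNA library, by small amounts, but 4 of 6 were below 0 after the length and GC correction described further on and 2 of 6 (MCM6 and MCM7) when folds were centred on genes of at least 50 CPM. MCM2 stood at 48.7 CPM with the control siRNA and 67.7 CPM with the CHI3L1 siRNA, a ratio of 1.39 (1.27 to 1.52). Its exons overlap the opposite-strand gene TPRA1 over 45 bases (660 and 777 reads against 770 and 1320), so its reads are uncertain. MCM5 stood at 60.6 and 80.4 CPM (ratio 1.33, 1.22 to 1.44). MCM4 stood at 95.5 and 114 CPM (ratio 1.20, 1.12 to 1.28). These were the larger differences of the ring, whose subunits surround DNA as a hexamer of related ATPases. MCM3 stood at 80.6 and 88.5 CPM (ratio 1.10, 1.02 to 1.18). For MCM6 (60.1 and 62.4 CPM) and MCM7 (223 and 230 CPM) the intervals held 1, at 0.953 to 1.13 and 0.986 to 1.08. So 6 of 6 subunits were above 0 on the log2 scale, 4 beyond counting error and 0 past 1.5-fold, where 51.2% of all tested genes were above 0. The ring's median log2 fold was 0.20, and its summed level went from 569 to 644 CPM (ratio 1.13, 1.10 to 1.16). With that correction the ring's median was −0.04, and MCM3, MCM4, MCM6 and MCM7 were below 0.

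Levels per kilobase of transcript put the subunits in an order that the libraries shared at its top. MCM7 was highest, at 75.6 CPM per kb with the control siRNA and 77.9 CPM per kb with the CHI3L1 siRNA. MCM3 followed at 25.1 and 27.6 CPM per kb and MCM4 at 22.8 and 27.3 CPM per kb. The lowest in the control siRNA library was MCM2, at 13.4 CPM per kb, and in the CHI3L1 siRNA library MCM6, at 16.7 CPM per kb. The other 5 subunits thus lay between 13.4 and 27.6 CPM per kb in both libraries, and MCM7 lay apart from them. An exon of MCM7 overlaps the opposite-strand gene AP4M1 over 392 bases, but AP4M1 had 335 and 379 reads against 3534 and 4491 for MCM7.

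GINS, the tetramer that joins the ring and CDC45, split into pairs. GINS1 stood at 28.8 and 22.1 CPM (ratio 0.767, 0.670 to 0.877), and GINS2 at 18.0 and 12.9 CPM (ratio 0.717, 0.603 to 0.853). On the other side, GINS4 stood at 16.3 and 20.1 CPM (ratio 1.23, 1.05 to 1.45), and GINS3 at 7.71 and 9.23 CPM, where the interval held 1 (0.946 to 1.52). None of the 4 passed 1.5-fold. Their median log2 fold was −0.07, with a range of −0.45 to 0.29. With the length and GC correction the median was 0.06. GINS1 then had −0.12 and GINS2 −0.35, while GINS3 had 0.37 and GINS4 0.24. Their summed level was 70.8 and 64.3 CPM (ratio 0.908, 0.837 to 0.985). All 4 have short coding sequences (median 618 nt). Exons of GINS2 overlap the opposite-strand gene GSE1 over 7 bases. GSE1 had 1094 and 1477 reads against 284 and 251, so reads of GINS2 are uncertain.

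Among the factors that act with these complexes, CDC6, the ATPase that brings the ring to ORC, stood at 34.2 and 29.7 CPM (ratio 0.868, 0.771 to 0.978). CDT1, its partner in loading the ring, stood at 15.7 and 18.7 CPM (ratio 1.19, 1.01 to 1.40). For CDC45, part of the active helicase, the levels were 18.5 and 21.2 CPM and the interval held 1 (0.985 to 1.34). MCM10, a firing factor outside the ring despite its name, stood at 9.68 and 13.8 CPM (ratio 1.43, 1.17 to 1.76). These 4 genes lay within 1.5-fold, and 3 of them were above 0.

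ORC is represented by 2 of the 34 genes. ORC6 stood at 37.6 CPM (595 reads) with the control siRNA and 23.5 CPM (458 reads) with the CHI3L1 siRNA (ratio 0.624, 0.552 to 0.706), with a log2 fold of −0.66. ORC1, the ATPase subunit whose level is cell cycle regulated, stood at 13.0 and 12.3 CPM, where the interval held 1 (0.778 to 1.14). ORC6 is thus past 1.5-fold lower, though its counting interval reaches inside 1.5-fold. With the length and GC correction its log2 fold was −0.39. The other ORC subunits, from a list of 82 further replication genes, were below 0 except ORC2, whose interval held 1 (0.877 to 1.175). ORC4 was lowest at 48.6 and 20.1 CPM, a log2 fold of −1.24, and ORC5 (−0.78) was also past 1.5-fold lower. ORC3 had −0.55 and ORC2 0.02. For the whole complex the median log2 fold was −0.60, and the summed ratio was 0.635 (0.604 to 0.667). With the correction that median was −0.35, ORC5 had −0.54, and ORC4 (−1.16) was the sole one of 6 subunits still past 1.5-fold lower.

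**Figure D2:**
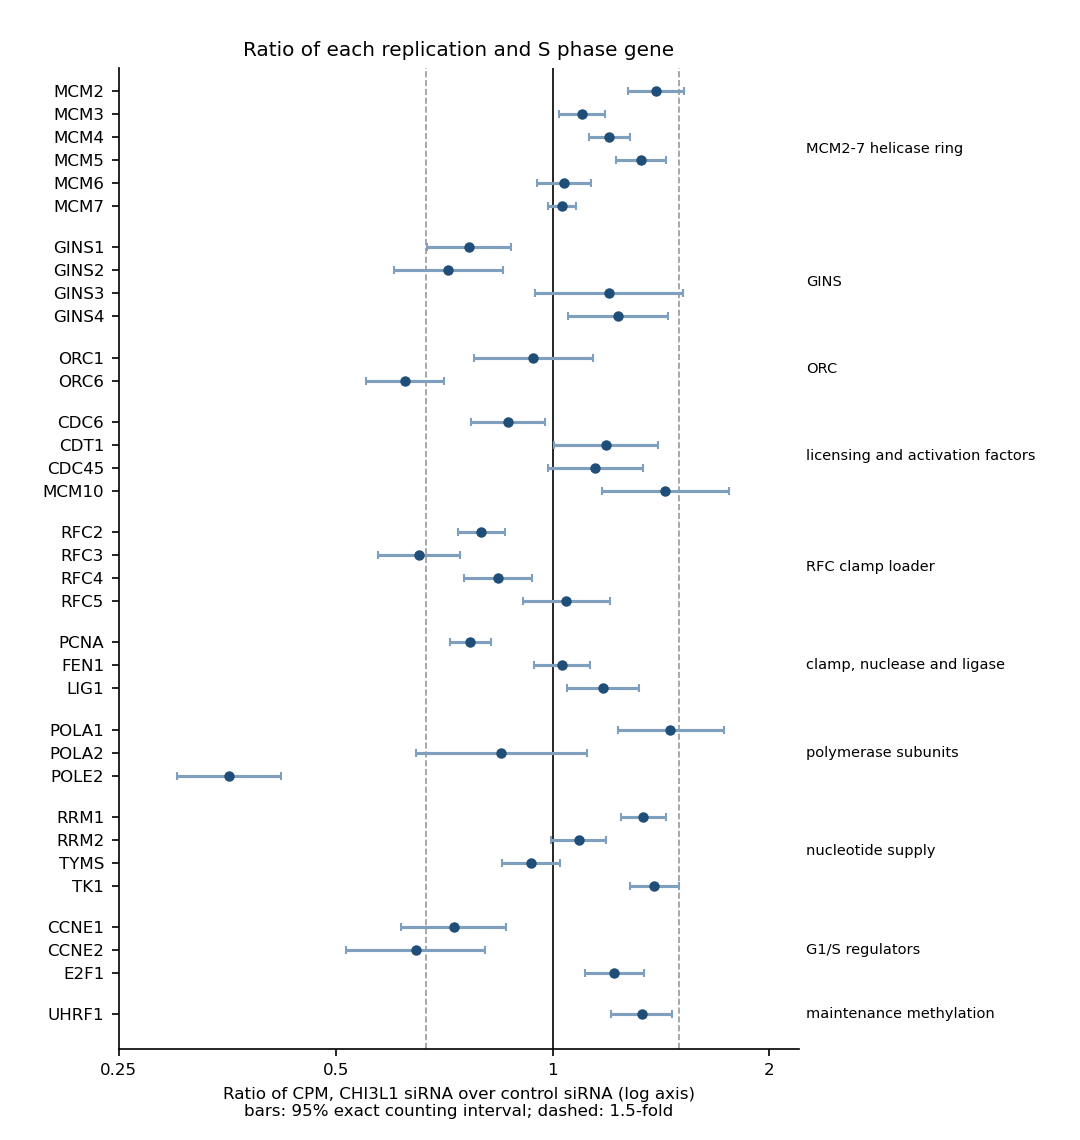
Ratio of CPM in the CHI3L1 siRNA library over the control siRNA library for each gene on a log axis, with 95% exact counting intervals as bars and 1.5-fold as dashed lines. The interval of POLE2 (0.301 to 0.420) is the sole one wholly beyond a dashed line.

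POLE2 had the largest difference. It encodes the second subunit of polymerase epsilon, the leading strand polymerase that travels with the helicase. The gene (ENSG00000100479) spans chromosome 14 positions 49643555 to 49688422 (GRCh38, minus strand). It had 476 reads (30.1 CPM) with the control siRNA and 209 reads (10.7 CPM) with the CHI3L1 siRNA (ratio 0.356, 0.301 to 0.420), with a log2 fold of −1.41. Its interval lay wholly beyond 1.5-fold lower, as did that of 8.4% of all tested genes. After the length and GC correction its log2 fold was −1.15. Its annotated transcript has 1776 nt and its coding sequence 1581 nt.

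Not all subunits of the same polymerase had a difference of this size. The catalytic subunit POLE stood at 36.7 and 38.4 CPM, where the interval held 1 (0.936 to 1.17), and the histone-fold subunit POLE3 at 83.7 and 80.9 CPM (0.898 to 1.04). Its histone-fold partner POLE4 stood at 85.3 and 36.3 CPM, a log2 fold of −1.21. So 2 of 4 polymerase epsilon subunits were at least 2-fold lower and the other 2 had intervals that held 1. After the length and GC correction POLE4 had −0.75, past 1.5-fold but not 2-fold, POLE turned to −0.42 and POLE3 to 0.27. In polymerase alpha with primase, POLA1, the catalytic subunit, had the highest uncorrected fold of the 34 genes, at 13.7 and 20 CPM (ratio 1.46, 1.23 to 1.73). Its log2 fold was 0.51, and 0.27 after the length and GC correction, where TK1 (0.71) was highest. POLA2, the accessory subunit of this polymerase, stood at 6.77 and 5.74 CPM with an interval that held 1 (0.646 to 1.12). The primase subunits differed from each other as well, with PRIM1, which makes the RNA primer, at a log2 fold of −1.15 (−0.69 corrected) and PRIM2 at 0.21. Reads of PRIM1 (524 and 281) are uncertain, since its exons overlap those of the same-strand gene NACA (3417 and 4250 reads) over 33 bases. In polymerase delta, 0 of 4 subunits passed 1.5-fold, and log2 folds ran from −0.32 (POLD2) to 0.17 (POLD1, −0.04 corrected).

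Of the small subunits of the RFC clamp loader, 3 of 4 were below 0, and 2 of 4 after the length and GC correction. RFC3 stood at 32.4 and 21.2 CPM (ratio 0.653, 0.572 to 0.745), with a log2 fold of −0.59, just past 1.5-fold (0.58). RFC2 stood at 85.8 and 68.4 CPM (ratio 0.797, 0.738 to 0.860), and RFC4 at 42.4 and 35.6 CPM (ratio 0.840, 0.755 to 0.936). RFC5 stood at 23.5 and 24.5 CPM, with an interval that held 1 (0.911 to 1.20). The median log2 fold of these 4 genes was −0.28, and their summed level was 184 and 150 CPM (ratio 0.813, 0.772 to 0.856). RFC1, the large subunit and not among the 34 genes, stood on the other side at 48.9 and 60.01 CPM (log2 fold 0.29). After the length and GC correction the median of RFC2 to RFC5 was −0.09, and RFC3 had −0.24. Exons of RFC5 overlap the opposite-strand gene WSB2 over 186 bases, and WSB2 had 1575 and 1817 reads against 371 and 478, so reads of RFC5 are uncertain. Those of RFC4 overlap the opposite-strand gene EIF4A2 over 21 bases. EIF4A2 had 10648 and 8914 reads against 671 and 695, so reads of RFC4 are uncertain too.

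PCNA, the ring-shaped clamp that RFC loads, stood at 122 and 94.0 CPM (ratio 0.769, 0.721 to 0.820), a log2 fold of −0.38 that was −0.02 with the length and GC correction. Per kilobase of transcript it was the highest of the 34 genes in the control siRNA library, at 90.9 CPM per kb, and at 70.0 CPM per kb in the CHI3L1 siRNA library it stood below MCM7. Its clients differed. FEN1, the flap nuclease, stood at 55.1 and 56.9 CPM with an interval that held 1 (0.943 to 1.13), and LIG1, the ligase, at 32.6 and 38.3 CPM (ratio 1.17, 1.05 to 1.32), with a log2 fold of 0.23, or 0.02 corrected. Exons of FEN1 overlap TMEM258 and FADS2, with 1512 and 975 reads in the control siRNA library against 872 for FEN1, so its reads are uncertain. Processed pseudogenes are annotated for PCNA, FEN1, RRM2, TYMS, RFC3 and RFC5, and the sources used here do not say how reads that match both were counted.

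Of the nucleotide supply genes, 3 of 4 were above 0 on the log2 scale. TK1, thymidine kinase of the salvage pathway, stood at 66.1 and 91.6 CPM (ratio 1.39, 1.28 to 1.497). RRM1, the large subunit of ribonucleotide reductase, stood at 76.7 and 103 CPM (ratio 1.34, 1.24 to 1.44), while its partner RRM2 stood at 56.1 and 61.0 CPM with an interval that held 1 (0.997 to 1.19). TYMS, thymidylate synthase, stood at 55.3 and 51.7 CPM with an interval that held 1 (0.852 to 1.02), and turned from −0.10 to 0.05 with the correction. The summed level of the 4 genes was 254 and 307 CPM (ratio 1.21, 1.16 to 1.26), and 0 of 4 passed 1.5-fold. Of 8 further genes of this supply, outside the 34, 1 was above 0 (51.2% of all tested genes) and 3 had intervals that held 1. DTYMK (thymidylate kinase, −0.88) and DUT (dUTPase, −0.72) were past 1.5-fold lower, 2 of 8 beside 13.4% of all tested genes. With the length and GC correction 0 of 8 were past it, DTYMK at −0.52 and DUT at −0.49. TYMS overlaps the opposite-strand gene ENOSF1 over 967 bases, with 379 and 450 reads against 875 and 1007.

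Regulators of the G1/S transition lay on both sides of 0. CCNE1, cyclin E1, stood at 18.8 and 13.7 CPM (ratio 0.729, 0.616 to 0.863). CCNE2, cyclin E2, stood at 11.8 and 7.64 CPM (ratio 0.646, 0.518 to 0.806), but its reads are uncertain, since 1629 bases of its exons overlap the opposite-strand gene INTS8, which had 777 and 942 reads against 187 and 149. On the log2 scale with 1 CPM added CCNE2 had −0.57, just inside 1.5-fold. It was past 1.5-fold with 0.5 CPM added (−0.60) and with centring on genes of at least 50 CPM (−0.67), and had −0.22 with the length and GC correction. E2F1, the activator whose letters were shown above, stood at 47.0 and 57.2 CPM (ratio 1.22, 1.11 to 1.34). UHRF1, which recruits the maintenance DNA methyltransferase to copied DNA, stood at 41.7 and 55.4 CPM (ratio 1.33, 1.21 to 1.47). So CCNE1 was lower beyond counting error and E2F1 and UHRF1 higher, while the value of CCNE2 carries the limit of that overlap.

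Of the 82 further replication genes, 81 passed the filter, CDKN1C being the exception with 9 and 2 reads. At least 1.5-fold higher were 2 of 81, beside 7.73% of all tested genes, and lower 13, beside 13.4%, with a median log2 fold of −0.04. After the length and GC correction 1 was higher (ASF1B, a histone chaperone, 0.67) and 8 were lower. The higher were E2F8 (15.7 and 24.9 CPM, log2 fold 0.63), a repressor of the E2F family, and RBL1 (13.9 and 21.9 CPM, 0.62), a relative of the retinoblastoma protein. With the correction both lay inside 1.5-fold, at 0.46 and 0.51. Lowest was RPA3, the small subunit of the single-strand binding protein RPA, at 284 and 72.2 CPM (ratio 0.254, 0.239 to 0.270). The next were ORC4, POLE4, PRIM1 and RNASEH2C, a subunit of the nuclease that removes RNA from DNA (log2 fold −1.11). RPA1 and RPA2, which form the same trimer as RPA3, had log2 folds of 0.26 (−0.02 corrected) and −0.04 (0.14 corrected). RNASEH2C overlaps the opposite-strand gene KAT5 over 1439 bases, with 275 and 248 reads against 1414 and 800. The cell cycle inhibitor CDKN1A stood at 22.9 and 23.3 CPM, with an interval that held 1 (0.884 to 1.17).

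**Figure D3:**
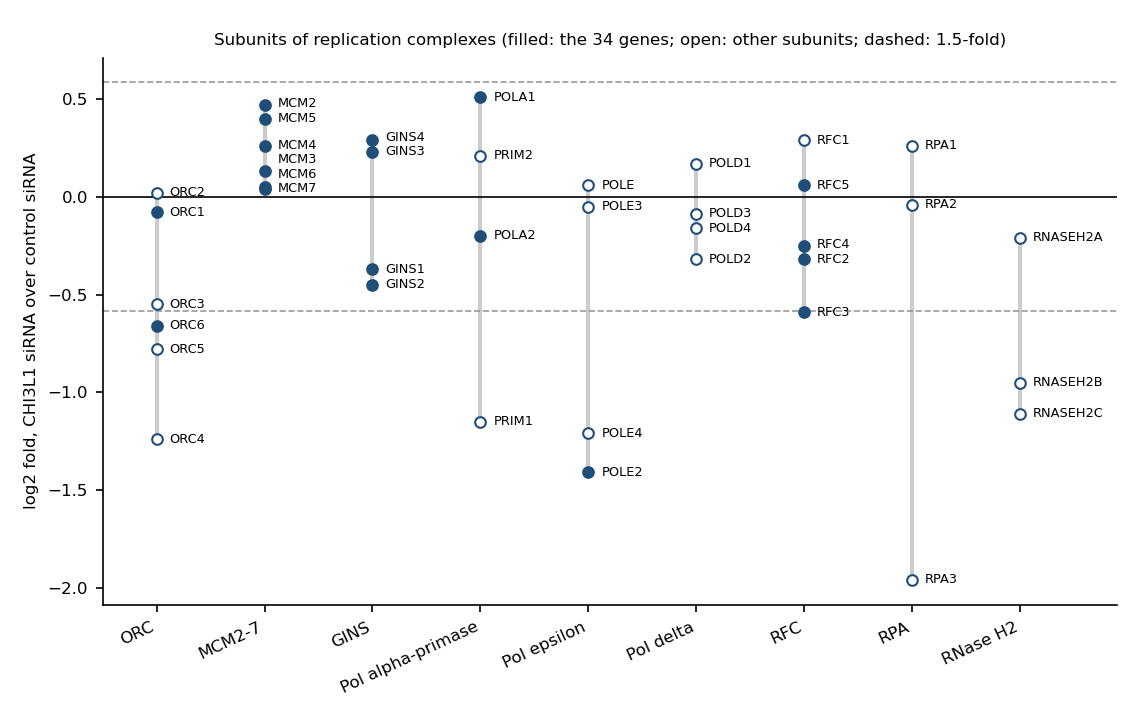
log2 fold of each subunit of 9 replication complexes, with filled points for the 34 genes, open points for other subunits and grey bars from the lowest to the highest subunit. Without the length and GC correction, the MCM2-7 subunits span 0.04 to 0.47, and those of RPA −1.96 to 0.26.

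Complexes thus differed in how far their own subunits spread. The highest fold over the lowest was 1.34 for MCM2-7, 1.41 for polymerase delta and 1.67 for GINS. It was 1.84 for RFC with RFC1 and 1.86 for RNase H2. The 3 subunits of RNase H2 were all below 0 (summed ratio 0.484, 0.454 to 0.516). RNASEH2A, the highest of them, had only 23 and 22 reads, and its interval held 1 (0.412 to 1.46). The spread was 2.39 for ORC, 2.77 for polymerase epsilon, 3.16 for polymerase alpha with primase and 4.66 for RPA. With the length and GC correction this order changed in part. Polymerase delta (log2 folds from −0.23 to 0.46) then spread wider than RFC (−0.24 to 0.26). Polymerase alpha with primase (−0.69 to 0.38) spread less than ORC (−1.16 to 0.03). MCM2-7 (−0.12 to 0.23) stayed narrowest and RPA (−1.58 to 0.14) widest. The grouping into complexes that include genes outside the 34 was made after the values were seen. The 6 markers of dividing cells spread too. TOP2A (332 and 492 CPM, log2 fold 0.56), MKI67 (155 and 215 CPM, 0.47), PLK1 (39.1 and 52.01 CPM, 0.40) and AURKA (57.4 and 64.2 CPM, 0.16) were above 0. With the length and GC correction MKI67 had −0.02, and the other 3 stayed above 0. CCNB1, cyclin B1, had −0.29 (172 and 141 CPM), and CDK1, the mitotic kinase and sole marker of the 6 past 1.5-fold, stood at 449 and 123 CPM (ratio 0.273, 0.261 to 0.286). The log2 fold of CDK1 went from −1.86 to −1.16 with the correction, and that of CCNB1 to −0.14.

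Folds moved with coding length within the 34 genes and in all genes. Between log2 fold and coding length, Spearman rho was 0.49 over the 34 genes and 0.46 over 12660 tested protein-coding genes, which share the same 2 libraries. Of the 9 genes with coding sequences above 2400 nt, 8 were above 0, and their median was 0.26, beside 0.29 for all tested genes of that class. The 7 genes of at most 900 nt had a median of −0.37, beside −0.30 for their class, in which 29.4% were at least 1.5-fold lower. Between 900 and 1500 nt the medians were −0.17 for 10 genes and −0.01 for their class, and between 1500 and 2400 nt they were 0.12 for 8 genes and 0.14. These classes were chosen after the values were seen. A smooth trend in transcript length, coding length and GC content was subtracted as an alternative. After it, the median of the 34 genes was 0.02, POLE2 (−1.15) was the sole gene at least 1.5-fold lower (7.32% of 12660 genes) and TK1 (0.71) the sole one at least 1.5-fold higher (6.06%). TK1 has a coding sequence of 702 nt and had a log2 fold of 0.46 before the correction. The part that length has in any single difference was not tested.

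**Figure D4:**
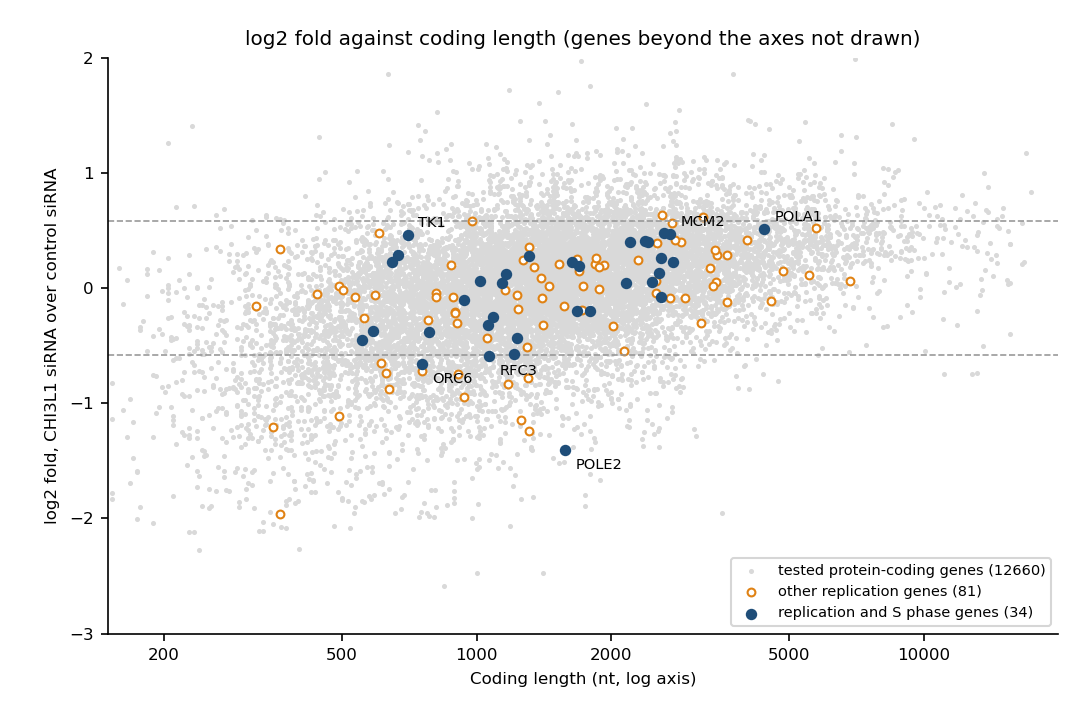
log2 fold of tested protein-coding genes (grey), other replication genes (open) and the 34 genes (filled) against coding length in nt on a log axis, with 1.5-fold as dashed lines. The 34 genes spread along the slope of the grey points, with POLE2 at −1.41 below it and TK1 at 0.46 above it.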

How the data were processed

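Per the labels' protocols, a TruSeq RNA kit from Illumina was used on 1 ug of total RNA taken up in Trizol. HISAT2, featureCounts, Trimmomatic, FastQC, MultiQC and the build GRCh38 appear in the submitters' processing notes, without versions or roles. Which annotation, strand setting, normalisation tool and low-value filter were used was not given in the sources used here. The authors deposited CPM values, in which every value, divided by a step fixed for each library, was 0.001 above a whole number (0.0632 CPM for 1 read in the control siRNA library, 0.0513 CPM in the CHI3L1 siRNA library), within 0.01 read. Reads were recovered from this. Each gene had at least 6 reads in 1 or both libraries. A count of 0 allows up to 3 reads (0.190 and 0.154 CPM).

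Fold compares the CHI3L1 siRNA library with the control siRNA library as log2 with 1 CPM added to both, which understates the difference of low genes. A fold of 1.5 was called among 14815 genes whose mean reached 1 CPM. No count model was run, since 1 library a group leaves no residual spread. Coordinates, overlaps and transcript properties (1 principal transcript a gene) came from GENCODE release 29, and promoters from RefSeq. The trend in length and GC content used splines with 5 degrees of freedom a term on 12545 coding genes outside the lists and took up 36% of their variance. Steps were tested on simulated data. The naming rule took CHI3L1, all 34 genes, the called genes at the ends of the further list (up to 5 a side) and thyroid and division markers. Other subunits, overlapping genes, ASF1B, DTYMK, DUT, CDKN1A, CDKN1C and the markers of other cell types fall outside it and were named after their values were seen. Members and lists were chosen with earlier results of these data known. Python 3.11.15, numpy 2.4.6, pandas 2.3.3, scipy 1.17.1 and matplotlib 3.10.9 were used.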

Additional observations from a re-analysis of the deposited data

How the results depend on the processing

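No paired analysis was possible because each group has 1 library. The counts of 0 genes at least 1.5-fold higher and 3 lower became 1 and 1 with the length and GC correction. Lower genes numbered 1 at a pseudocount of 10 CPM, among transcripts of at least 2000 nt, at a fold of 2 and with counting intervals wholly beyond 1.5-fold. They numbered 4, with CCNE2 added, at a pseudocount of 0.5 CPM and when centred on genes of at least 50 CPM. The median of the 34 genes (0.06) was −0.04 with that centring. The MCM2-7 median log2 fold (0.20) was 0.10 when centred on genes of at least 50 CPM, which shifts all folds by −0.100, and −0.04 with the correction. The RFC median (−0.28) was −0.09 after the same step, and −0.59 where transcripts had to reach 2000 nt, which leaves RFC3 alone. The ORC median (−0.37) was −0.08 there, with ORC1 alone, and the GINS median (−0.07) was −0.37 where means had to reach 10 CPM, with 3 genes. Of the 34 log2 folds, 6 changed sign with the correction, 4 with centring and 0 with pseudocounts of 0.5 or 10 CPM or a trimmed mean of log ratios. Apart from the changes in which genes were kept, the cause was not tested. Depth limits the lower genes: POLA2, with 107 and 112 reads, had an interval from 0.646 to 1.12.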
